A study of Vitis vinifera with 23 samples.

Results

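UVR8, COP1, HY5 and HYH are 4 genes that carry the UV-B signal and other light signals in plants. They were chosen by name and identifier and not by a measured value, though with earlier results of these data known. UVR8 is Vv07s0031g02560, COP1 is Vv12s0059g01420, HY5 is Vv04s0008g05210 and HYH is Vv05s0020g01090. The deposited table holds identifiers without names, positions or sequences, so the names are those under which the members were chosen. All 4 were among the 20205 tested genes of the 29970 in the table, and each was above 1 FPKM (fragments per kilobase of transcript, scaled to the mapped fragments of each sample) in all 23 samples.

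The samples are whole berries of field-grown Vitis vinifera cv. Sauvignon blanc, freed of their seeds, taken from shaded control vines or from vines whose leaves and lateral shoots had been removed around the bunches (exposed). Berries were sampled when green (EL31), before véraison (EL33), at the stage that the labels call EL34 and the study's methods call EL35 (véraison, the onset of ripening), and when ripe (EL38). There were 3 exposed and 3 control samples at each stage except EL38, which had 2 controls after the authors set 1 aside as an outlier. A replicate was a panel of vines, and the same panels may have been sampled at each stage. Sunlight, any UV-B in it and any warming by the sun reached the exposed bunches together, so the comparison with the controls concerns the exposure as a whole. The paper states that berry temperature changed little in this vineyard system, citing an earlier study. In whole berries, fewer cells of a type and less RNA per cell cannot be told apart.

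In Arabidopsis, UVR8 is the receptor that absorbs UV-B and then binds COP1. COP1 is the ubiquitin ligase that, in darkness, sends light-signalling transcription factors to degradation. HY5 and its close relative HYH are bZIP transcription factors that escape COP1 in the light and activate genes of photoprotection and flavonol synthesis, and flavonols are the main UV-absorbing sunscreen of the grape skin. UVR8 acts first at the protein level, so its transcript level is not a measure of its activity.

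Both transcription factors were higher in exposed than in control grapes, by 1.65-fold for HY5 and 1.70-fold for HYH when the 4 stages were averaged. The receptor UVR8 passed no test of exposure. COP1 was lower in exposed grapes by a small amount that was called only in the average of the stages. That call was lost with a random block for the panel of vines, which was inferred from the sample numbers. Through development HY5 was highest before véraison, UVR8 fell at every step, COP1 rose in ripe berries and no step of HYH was called. Differences were tested with limma on log2(FPKM + 0.1), and a gene was called at a Benjamini-Hochberg adjusted p of at most 0.05 over all genes tested. A fold printed here is on that scale.

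Of the 4 members, 2 were called higher in exposed grapes at EL31, where 3.8% of all tested genes were, and 1 at EL33 (HYH, 2.54% of all genes), at EL34 (HY5, 2.17%) and at EL38 (HYH, 1.52%). No member was called lower by limma at any single stage (by unadjusted p under 0.05, only COP1 at EL33 was), beside 0.881% of all genes at EL31, 0.95% at EL33, 1.16% at EL34 and 3.26% at EL38. In the average of the 4 stages 2 members were called higher and 1 lower, against 6.44% and 6.09% of all genes.

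**Figure D1:**
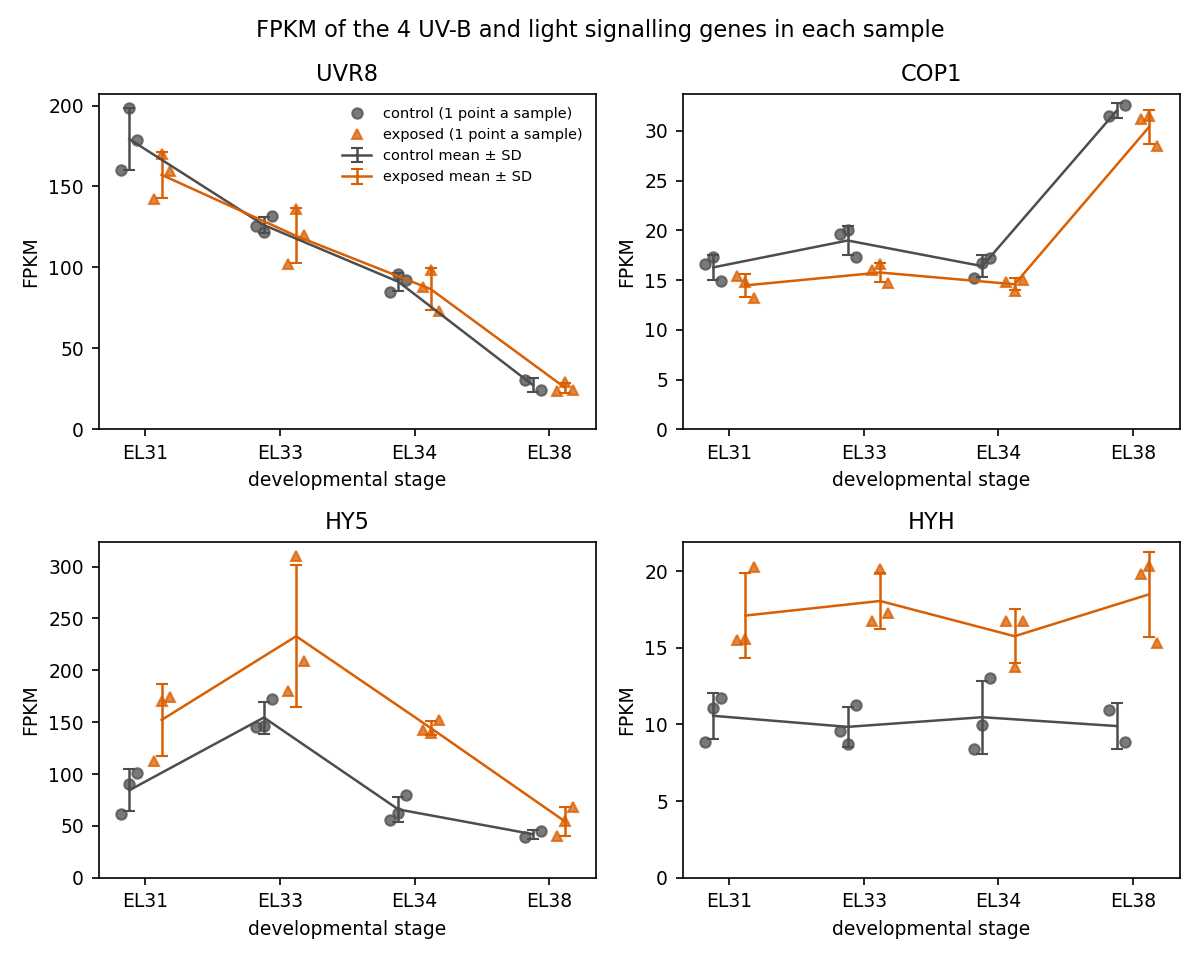
FPKM of UVR8, COP1, HY5 and HYH at the 4 stages, with 1 point for each sample (circles control, triangles exposed) and lines through the group means with SD bars; groups have 3 samples, the EL38 controls 2. The exposed HYH samples lie above every control of their stage, HY5 is highest at EL33, UVR8 declines from 160 to 199 FPKM in EL31 controls to 24.4 and 30.2 in EL38 controls, and COP1 is highest at EL38.

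The receptor UVR8 was among the more abundant transcripts, averaging 104.8 FPKM over all samples, above 84.4% of tested genes. In control grapes it was at 160, 199 and 179 FPKM at EL31, at 125, 122 and 131 FPKM at EL33, at 84.8, 96.1 and 92.5 FPKM at EL34, and at 30.2 and 24.4 FPKM at EL38. The exposed samples were at 142, 170 and 159 FPKM at EL31, at 102, 136 and 120 FPKM at EL33, at 88.2, 98.5 and 73.2 FPKM at EL34, and at 23.8, 29.0 and 24.1 FPKM at EL38. Control and exposed samples overlapped at every stage.

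UVR8 fell at each step of development in both treatments. In the controls the log2 change was -0.50 from EL31 to EL33 (adjusted p = 0.00576), -0.47 from EL33 to EL34 (adjusted p = 0.00593) and -1.74 from EL34 to EL38 (adjusted p = 3.88e-08). The exposed grapes gave -0.40 (adjusted p = 0.0232), -0.46 (adjusted p = 0.00742) and -1.75 (adjusted p = 4.70e-09) at the same steps. The last step took UVR8 to 0.299 of its EL34 level in the controls and 0.298 in the exposed grapes. These steps were steps of large change for the transcriptome, and 20.6%, 24.2% and 23.6% of all tested genes were called lower at the 3 steps in the controls, with 20.6%, 21% and 29.5% in the exposed grapes. The first exposed step lost its call under both other scalings and when any 1 of EL31 exposed replicates 2 and 3 or EL33 exposed replicates 1 and 3 was left out (adjusted p up to 0.121), and the second when EL34 exposed replicate 3 was left out (adjusted p = 0.0523).

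Exposure left no called difference in UVR8. The log2 difference between exposed and control grapes was -0.19 at EL31, -0.088 at EL33, -0.082 at EL34 and -0.089 at EL38, with adjusted p of 0.599 to 0.868. Averaged over the stages it was -0.11 (95% confidence interval -0.25 to 0.029, adjusted p = 0.318). That interval holds the average difference found for COP1 and does not hold the one found for HY5.

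COP1, the ubiquitin ligase, was present at moderate levels, with a mean of 19.3 FPKM. Control grapes were at 16.7, 17.3 and 14.9 FPKM at EL31, at 19.6, 20.04 and 17.3 FPKM at EL33, at 15.2, 16.8 and 17.3 FPKM at EL34 and at 31.5 and 32.6 FPKM at EL38. Exposed grapes were at 15.4, 14.8 and 13.2 FPKM at EL31, at 16.0, 16.6 and 14.7 FPKM at EL33, at 14.8, 13.9 and 15.0 FPKM at EL34 and at 31.2, 31.5 and 28.5 FPKM at EL38. The groups overlapped at EL31, and every exposed sample was below every control sample at EL33, EL34 and EL38, as was true of 12.1%, 9.88% and 18.4% of all tested genes (10.2% at EL31). At EL38 the highest exposed sample (31.52 FPKM) and the lowest control (31.53 FPKM) were nearly equal.

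At no single stage was the COP1 difference called. It was -0.17 at EL31 (adjusted p = 0.411), -0.27 at EL33 (adjusted p = 0.114), -0.17 at EL34 (adjusted p = 0.381) and -0.078 at EL38 (adjusted p = 0.784). The average of the 4 stages was -0.17 (standard error 0.045, 95% confidence interval -0.26 to -0.075, adjusted p = 0.0186), a level 0.889 of that in the controls. Its call was lost with a random block for the panel of vines (-0.17, limma adjusted p = 0.0667). The panel was inferred from the final digits of the sample numbers, as the labels do not name it. The call was also lost without 4 samples with high seed globulins (-0.16).

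COP1 rose in ripe berries, between EL34 and EL38. The log2 change at that step was 0.96 in the controls (fold 1.95, adjusted p = 4.26e-07) and 1.05 in the exposed grapes (fold 2.08, adjusted p = 2.04e-08), where 21.8% and 25.2% of all tested genes were called higher. At the first and second steps in the exposed grapes no member was called higher, against 11.7% and 21.4% of all genes. No earlier step of COP1 was called, with log2 changes of 0.22 and -0.21 in the controls (adjusted p = 0.0645 and 0.0591) and 0.12 and -0.11 in the exposed grapes (adjusted p = 0.316 and 0.338). The first control step was called in 6 of 11 alternative settings (limma adjusted p = 0.00513 to 0.2 over the 11, the lowest with quantile normalization at 0.37) and the second in 4 of 11. Quantile normalization also called the first exposed step, at 0.31 (adjusted p = 0.0152).

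The receptor transcript outweighed that of the ligase until the berries ripened. The ratio of UVR8 to COP1, both in FPKM, was 9.23 to 12.1 in the 6 samples of EL31, 6.08 to 8.19 at EL33 and 4.87 to 7.08 at EL34. In the 5 ripe samples it was 0.75 to 0.958, so COP1 was the more abundant of the pair in every ripe sample and in none of the younger ones. Control and exposed ratios overlapped at each stage.

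**Figure D2:**
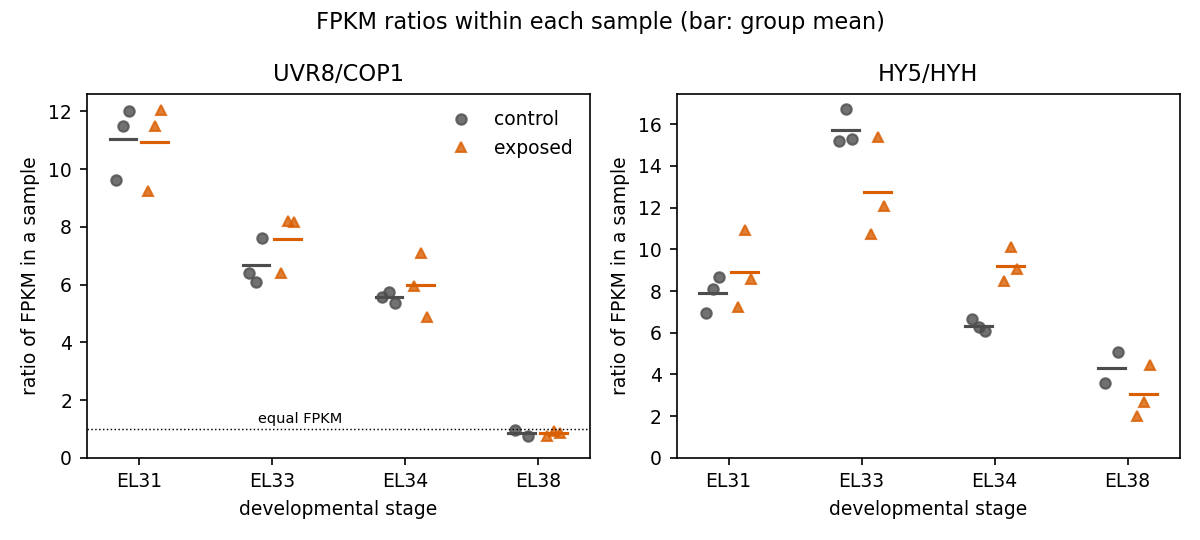
Ratio of UVR8 to COP1 and of HY5 to HYH within each sample, both in FPKM, at the 4 stages (circles control, triangles exposed, short bars group means). UVR8/COP1 passes below 1 only at EL38, and HY5/HYH is highest at EL33 and lowest at EL38 in both treatments.

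HY5 had a mean of 119.6 FPKM over all samples, above 86.1% of tested genes. Its group mean was below that of UVR8 at EL31 in both treatments (84.4 against 179 FPKM in the controls) and in the EL34 controls (65.9 against 91.1 FPKM), and above it in the other groups. At EL31 the controls were at 61.9, 90.1 and 101.3 FPKM and the exposed samples at 112, 170 and 174 FPKM. At EL33 the controls were at 145, 146 and 172 FPKM and the exposed samples at 180, 310 and 209 FPKM. The groups did not overlap at either stage, which held for 11.3% of all tested genes at EL31 and 8.96% at EL33 with exposed higher.

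At EL34 the HY5 controls were at 55.8, 62.7 and 79.4 FPKM and the exposed samples at 142, 139 and 152.1 FPKM. This was the widest gap between the treatments, again with no overlap (9.16% of all tested genes with exposed higher). At EL38 the controls were at 39.0 and 45.1 FPKM and the exposed samples at 40.2, 54.6 and 67.9 FPKM, and the lowest exposed sample lay between the controls.

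The exposure difference of HY5 on the log2 scale was 0.85 at EL31 (standard error 0.23, adjusted p = 0.0446) and 1.145 at EL34 (standard error 0.23, adjusted p = 0.00946), folds of 1.804 and 2.21. At EL33 it was 0.56 (adjusted p = 0.231) and at EL38 0.34 (95% confidence interval -0.21 to 0.89, adjusted p = 0.582). The average of the 4 stages was 0.72 (standard error 0.12, 95% confidence interval 0.47 to 0.98, adjusted p = 0.000562). The differences among the stages did not themselves pass the test (F test of the 3 differences from EL31, adjusted p = 0.491), so HY5 is not shown to respond more at one stage than at another. Its EL31 call stood close to the threshold and was lost in 15 of the 23 fits that left out 1 sample (adjusted p 0.0223 to 0.226), while the EL34 call and the average kept theirs in all 23. With each stage fitted alone no member was called at any stage, and HY5 at EL34 had an adjusted p of 0.0674.

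**Figure D3:**
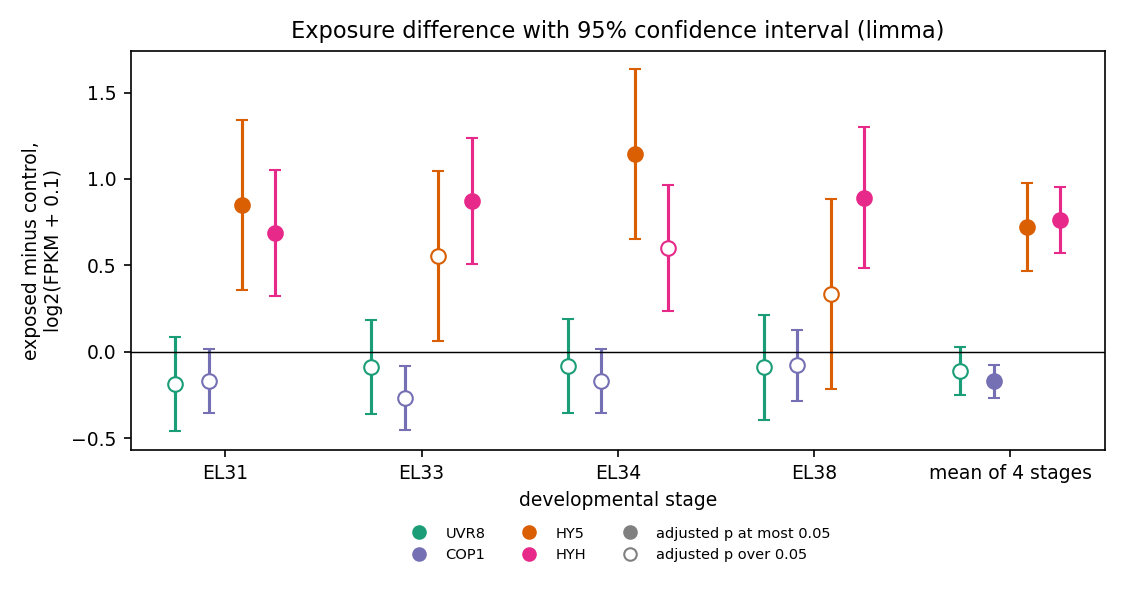
Exposed minus control difference of the 4 members on the log2(FPKM + 0.1) scale at each stage and in the mean of the 4 stages, with 95% confidence intervals from limma. Filled points have an adjusted p of at most 0.05: HY5 at EL31 and EL34, HYH at EL31, EL33 and EL38, and HY5, HYH and COP1 in the mean.

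HY5 in the controls rose and then fell. It rose by 0.90 on the log2 scale from EL31 to EL33 (adjusted p = 0.00622), where 11.5% of all tested genes were called higher. From EL33 to EL34 it fell by 1.24 (adjusted p = 0.000273), where 24.2% of all genes were called lower. At that step 23% of all genes were called higher, and no member was. The last control step was -0.64 (adjusted p = 0.0562). In the exposed grapes the first step was 0.60 (adjusted p = 0.0578), the second -0.65 (adjusted p = 0.0321) and the last -1.44 (adjusted p = 4.77e-05). The second exposed step lost its call without EL33 exposed replicate 2 or any 1 of the EL34 exposed samples (adjusted p up to 0.186).

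Ordered by level, the HY5 controls ran from EL33 through EL31 and EL34 to EL38, with EL31 and EL34 overlapping. The exposed grapes had the same order, and their EL31 and EL34 values (112 to 174 and 139 to 152.1 FPKM) overlapped as well. The steepest fall came between EL33 and EL34 in the controls and between EL34 and EL38 in the exposed grapes. The test of that shift, the change of the exposure effect from EL33 to EL34 (0.59, adjusted p = 0.698) and from EL34 to EL38 (-0.81, adjusted p = 0.304), passed at neither step. Of all tested genes, 2.1% had an exposure effect that differed between stages by the F test, and no member did.

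Seed globulin transcripts, from a tissue that had been removed, were high in 4 samples. The 4 seed globulin genes measured, which encode storage proteins, summed to 823 FPKM in EL34 exposed replicate 2, 686 in EL33 control replicate 1, 249.96 in EL34 exposed replicate 3 and 49.0 in EL33 exposed replicate 1, and to at most 8.05 in the other samples. All 10 seed markers, oleosins of oil bodies included, summed to 535 to 1248 FPKM in exposed and 463 to 486 in control grapes at EL34, and to 179 to 265 FPKM at EL38. At EL34 the oleosins OLE-a (Vv14s0066g00700) and OLE-e (Vv02s0234g00110) averaged 201 and 265 FPKM in the controls. There every other seed marker averaged at most 6.44 FPKM, and each globulin at most 0.379. At EL38 OLE-e averaged 210 FPKM in the controls and 146 in exposed grapes, and OLE-a 28.7 and 32.4. The control sums at these stages were thus mostly these oleosins, whose origin in seed was not tested. HY5 in EL34 exposed replicate 1, where the globulins summed to 7.65 FPKM, was 142 FPKM, above all 3 controls. Without the 4 samples the HY5 difference at EL34 was 1.12 (adjusted p = 0.201), with 1 exposed sample left there whose spread was taken from the other groups, and the average stayed called.

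Markers of ripening were high in 2 of the 3 exposed samples at EL33. The thaumatin VVTL1, the polygalacturonase PG1 and the abscisic acid synthesis gene NCED summed to 3241 and 2487 FPKM in EL33 exposed replicates 1 and 3, against 96.8 in exposed replicate 2 and 141 to 174 in the controls, and 15566 to 21618 at EL34. HY5 was 180 and 209 FPKM in the first pair and 310 FPKM in exposed replicate 2. The part of this difference in ripening in the HY5 values at EL33 was not tested. The 4 photosynthesis markers of green berry (LHCA2, CAB1, PsbS and PSBP) summed to higher values in exposed than in control samples, with no overlap, at EL31, EL33 and EL34, for example 4236 to 5211 against 2428 to 2661 FPKM at EL31, and overlapped at EL38 (326 to 417 against 291 to 373 FPKM). By limma 3, 2, 1 and 0 of these 4 were called higher at the 4 stages (2 at EL38 by unadjusted p), and of the ripening markers only NCED at EL33 was. The paper reports LHCA2, CAB1 and PsbS as raised by exposure in green berries and PSBP as affected by it. The direction of the sums of these 4 was thus known beforehand. The part of green tissue in the values of HY5 and HYH was not tested.

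HYH was expressed at a lower level than HY5, with a mean of 13.9 FPKM, above 42.8% of tested genes. Its controls were at 8.89, 11.1 and 11.7 FPKM at EL31, at 9.55, 8.74 and 11.3 FPKM at EL33, at 8.38, 9.98 and 13.1 FPKM at EL34, and at 10.9 and 8.86 FPKM at EL38. The exposed samples were at 15.5, 15.6 and 20.3 FPKM at EL31, at 16.8, 20.1 and 17.3 FPKM at EL33, at 16.8, 13.7 and 16.8 FPKM at EL34, and at 19.8, 20.3 and 15.3 FPKM at EL38. The lowest exposed sample was above the highest control at all 4 stages, as was true of 1.12% of tested genes (12.6% at EL38 alone).

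The HYH difference was 0.69 at EL31 (standard error 0.17, adjusted p = 0.0277), 0.87 at EL33 (standard error 0.17, adjusted p = 0.00905) and 0.89 at EL38 (standard error 0.19, adjusted p = 0.0127), which are folds of 1.61, 1.83 and 1.85. At EL34 it was 0.60 (adjusted p = 0.0692) and was not called. The average was 0.76 (standard error 0.089, 95% confidence interval 0.57 to 0.95, adjusted p = 1.42e-05). No difference among stages was found (F test, adjusted p = 0.876), and no step of development was called in either treatment, with log2 changes between -0.20 and 0.22 and adjusted p of 0.295 or more. The EL31 call was lost without EL31 exposed replicate 3 or control replicate 1 or 2 (adjusted p up to 0.157), the EL33 call without EL33 control replicate 2 (0.0603) and the EL38 call without EL38 control replicate 2 (0.168). Without the 4 samples with high seed globulins the HYH difference was 0.69 at EL31 and 0.90 at EL33, and both calls were lost. None of the 4 was an EL31 sample, so the EL31 difference was unchanged. What changed there was the spread shared by the groups and the adjustment over genes. The HYH difference stayed called at EL38 and in the average.

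HYH showed none of the called steps of HY5, its closest relative among the members, and the difference between both courses was not tested. HY5 varied over the samples by 7.94-fold from lowest to highest and HYH by 2.43-fold. The ratio of HY5 to HYH was 6.96 to 10.9 at EL31, 10.7 to 16.7 at EL33, 6.08 to 10.1 at EL34 and 2.03 to 5.09 at EL38. At EL34 the exposed ratios (8.48 to 10.1) lay above the control ratios (6.08 to 6.65), and at the other stages the treatments overlapped. Over the 23 samples the correlation of HY5 with HYH on the log2 scale was r = 0.36, and it was 0.44 for deviations from the group means, with samples sharing stages and libraries.

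The numbers in the sample labels fall in a lower and an upper range within each stage, and exposed and control samples were compared within each range. Each comparison set 1 exposed sample against 2 controls (lower range) or 2 against 1 (upper range). They reuse the samples of the main comparisons and do not replicate them. The share of all tested genes with 1 direction throughout was not counted. HYH was higher in exposed grapes in all 7 comparisons (0.63 to 1.001 in the lower range, 0.21 to 0.72 in the upper range). HY5 was higher in 6 of 7, with -0.062 in the lower range at EL38, up to 1.26 in the lower range and 0.56 to 0.87 in the upper range. COP1 was lower in exposed grapes in all 7 (-0.31 to -0.039 and -0.25 to -0.092), as was UVR8 (-0.33 to -0.033 and -0.12 to -0.041). No control of the upper range was left at EL38. With the range as a term in the model, HY5 at EL31 was 0.68 (adjusted p = 0.0540), HYH at EL31 0.62 (adjusted p = 0.0929) and HYH at EL38 1.001 (adjusted p = 0.137). The labels do not say what the numbers stand for.

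Among 10 genes of classes that depend on UVR8 and HY5 for their UV-B response in Arabidopsis, 3 were called higher in exposed grapes at EL31, 6 at EL33, 4 at EL34 and 5 at EL38, and limma called none lower (none at an unadjusted p under 0.05 either). Of all tested genes, 3.8%, 2.54%, 2.17% and 1.52% were called higher at these stages, and 0.881%, 0.95%, 1.16% and 3.26% lower. The list was drawn up with earlier results of these data known, so its direction is not independent evidence. Its median log2 difference was 0.43, 0.64, 0.50 and 0.58 at the 4 stages, beside medians of -0.033, -0.020, -0.0058 and -0.025 for all tested genes.

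The flavonol synthase FLS (Vv18s0001g03470) was called higher at all 4 stages, with differences of 3.79 to 4.64. Over the 23 samples FLS correlated with HYH at r = 0.84 and with HY5 at r = 0.22, and for deviations from the group means at 0.52 and 0.38. The other downstream genes correlated with HYH at r = -0.050 to 0.59 and with HY5 at r = -0.60 to 0.56 over these samples. The early light-inducible protein ELIP1 (Vv05s0020g04110), which protects the photosynthetic membranes, was called higher at EL31, EL33 and EL34 by 2.39, 2.34 and 0.92, and not at EL38 (0.43, adjusted p = 0.472).

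Chalcone synthase makes the first intermediate of all flavonoids. Of its 3 genes, CHS2 (Vv14s0068g00920) was called higher at EL33, EL34 and EL38, with log2 differences of 1.21, 1.51 and 1.97, and CHS1 (Vv14s0068g00930) at EL31, EL33 and EL38, with 0.58, 0.91 and 1.07. CHS3 (Vv05s0136g00260) was called at no stage (-0.43 to 0.14). Near-identical copies can share reads, and how reads were divided between CHS1 and CHS2 was not examined, so the split between them is uncertain.

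The next enzymes of the pathway are chalcone isomerase and flavanone 3-hydroxylase. CHI-a (Vv13s0067g03820) was called at EL33 (0.59, adjusted p = 0.0186) and CHI-b (Vv13s0067g02870) at no stage. F3H-b (Vv18s0001g14310) was called at EL33, EL34 and EL38 (0.70, 0.75 and 0.70) and F3H-a (Vv04s0023g03370) at none. MYBF1 (Vv07s0005g01210), the MYB regulator of flavonol synthesis, was at 60.0 FPKM in control and 54.6 FPKM in exposed grapes at EL31, and was called higher only at EL38, at 3.66 against 0.803 FPKM (log2 difference 2.002, adjusted p = 0.000517).

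**Figure D4:**
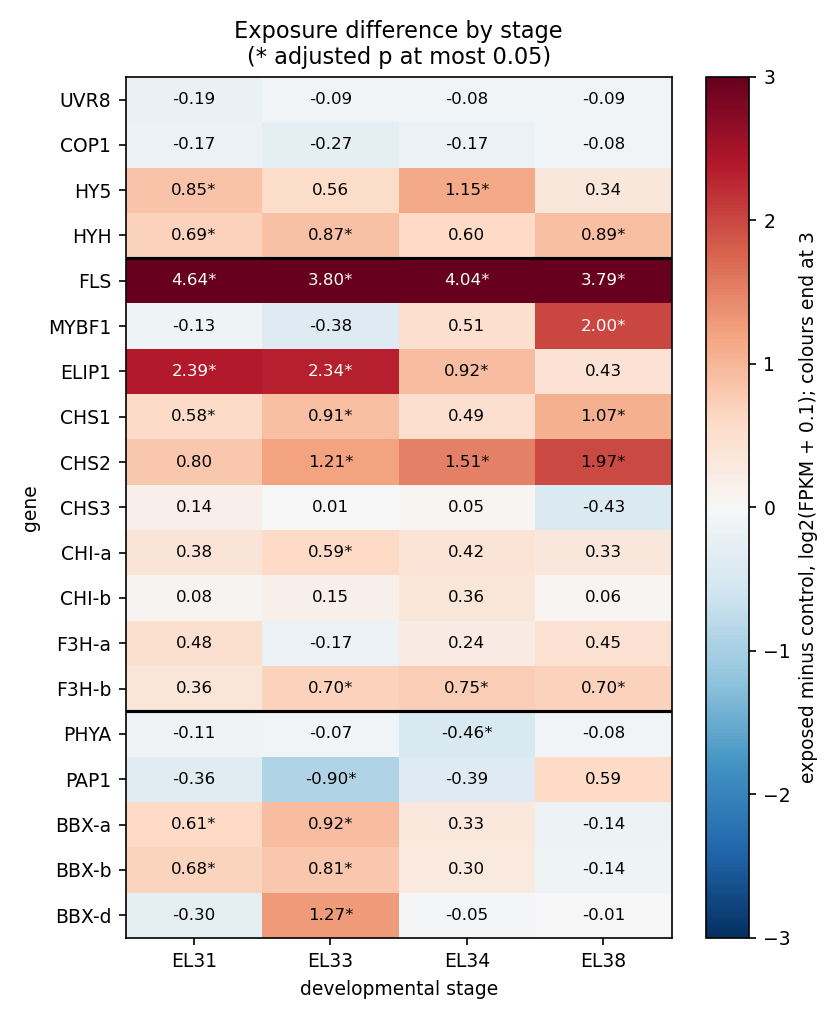
Exposed minus control difference on the log2(FPKM + 0.1) scale at each stage for the 4 members (top), the 10 downstream genes (middle) and the 5 other light signalling genes called at 1 stage or more (bottom); red is higher in exposed grapes and an asterisk marks an adjusted p of at most 0.05. FLS, at 3.79 to 4.64, exceeds every other gene shown, and ELIP1, BBX-a and BBX-b have larger differences at EL31 and EL33 than at EL38.

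Of 18 other light signalling genes, 2 were called higher at EL31, 3 higher and 1 lower at EL33, 1 lower at EL34 and none at EL38 (6 at an unadjusted p under 0.05), and 13 were called at no stage. Of all tested genes, 3.8%, 2.54%, 2.17% and 1.52% were called higher and 0.881%, 0.95%, 1.16% and 3.26% lower at the 4 stages. The study annotated them as phytochromes and their partners, COP1-interacting proteins, COP9 signalosome subunits and B-box zinc fingers, and had listed them as markers of development in the control samples. Their median difference was -0.094, 0.065, -0.11 and -0.025 at the 4 stages. The 18 include 3 COP1-interacting proteins and 4 subunits of the COP9 signalosome, a complex that works with COP1 in the dark, and none of these 7 was called at any stage. With so few of all genes called, a count of 0 among 7 says nothing particular about them.

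B-box zinc finger proteins include partners of HY5 in Arabidopsis. BBX-a (Vv00s0203g00210) was called higher in exposed grapes at EL31 (0.61, adjusted p = 0.0105) and EL33 (0.92, adjusted p = 0.00111), and BBX-b (Vv00s0347g00030) at the same stages (0.68 and 0.81). At EL38 both were slightly lower in exposed grapes (-0.14 and -0.14, adjusted p = 0.712 and 0.720). BBX-d (Vv12s0059g02510) was called only at EL33, at 12.1 against 4.81 FPKM (1.27, adjusted p = 0.0181), where the ripening markers also differed among samples. It was at 96.1 and 98.6 FPKM in exposed and control grapes at EL34. In the controls BBX-a was at 13.9 FPKM at EL33 and 37.4 FPKM at EL34, and BBX-b at 19.2 and 44.9 FPKM. The part of ripening in the EL33 differences of BBX-a, BBX-b and BBX-d was not tested.

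The photoreceptor gene PHYA, phytochrome A (Vv14s0060g00100), was called lower in exposed grapes at EL34, at 13.6 against 18.7 FPKM (-0.46, adjusted p = 0.0324). PAP1 (Vv09s0002g03410), annotated as a phytochrome-associated protein, was called lower at EL33, at 20.5 against 37.8 FPKM (-0.90, adjusted p = 0.00258), and was at 41.6 against 27.3 FPKM at EL38 (0.59, adjusted p = 0.0501). PAP1 was at 16.8 FPKM in the EL34 controls, and the part of ripening in its EL33 difference was not tested. Without the 4 samples with high seed globulins, fewer genes of both lists were called at EL33 and EL34, with 1 exposed sample left at EL34. Fewer of all tested genes were called at these stages as well, so the drop is not particular to the lists.

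The genes most like each member were sought over the 23 samples among the 14854 tested genes that averaged 5 FPKM or more, by the Pearson correlation on the log2 scale. For HY5 these were Vv06s0004g05770 (r = 0.9501), which the study annotated as a class I small heat shock protein, Vv02s0025g04180 (r = 0.939) and Vv01s0011g03690 (r = 0.938). UVR8 was matched most closely by Vv01s0026g00330 (r = 0.992), Vv07s0005g04710 (r = 0.989), annotated as a protein kinase, and Vv05s0020g01740 (r = 0.988). Those for COP1 were Vv05s0102g00250 (r = 0.969), Vv11s0206g00060 (r = 0.965) and Vv15s0046g03360 (r = 0.965), and for HYH Vv18s0001g00190 (r = 0.863), Vv07s0031g02690 (r = 0.859) and Vv06s0080g00030 (r = 0.857). The closest matches of HYH were looser than those of the other members. UVR8 and COP1 ran opposite over the samples (r = -0.87) while deviations from the group means gave r = -0.038.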

How the data were processed

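The deposited FPKM values of 29970 genes in 23 samples were used. The authors sequenced poly(A) mRNA, aligned the reads to the V1 grapevine genome with TopHat and computed FPKM with Cufflinks; CASAVA 1.8.2 is listed in the submitters' processing notes. FPKM is not a count, so the authors' count-based test could not be run. Groups came from the sample labels.

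A gene was tested where 1 or more of the 8 group means reached 1 FPKM (20205 genes). The model, fitted in R 4.3.3 by limma 3.58.1 to log2(FPKM + 0.1), held a mean for each group, and eBayes used a trend. P-values were two-sided, adjusted by Benjamini-Hochberg within each contrast, and called at 0.05 or less. The pseudocount understates changes of low genes. Summaries and figures used Python 3.11.15 (numpy 2.4.6, pandas 2.3.3, matplotlib 3.10.9). The fit was first tested on simulated data.

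The members and gene lists were chosen with earlier results of these data known. Named genes were the members, the 10 downstream genes, other light signalling genes called in the exposure contrast of at least 1 stage, and the 3 genes most correlated with each member. Markers of green berry, ripening berry and seed were also listed; limma called no seed marker between treatments at any stage (1, 1, 6 and 0 of 10 at an unadjusted p under 0.05).

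Total counts are not known from FPKM. The steps between values under 0.06 FPKM gave relative depths, over 253 pairs of samples of which 4 were left out (11 to 131 genes a pair), from 0.705 in EL34 exposed replicate 1 to 2.64 in EL33 control replicate 2, with the shallower samples at EL34 and EL38. Precision was taken from the spread between replicates, and panels of vines were the replicates. No more than 0.0050% of values were identical between any pair of samples.

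Alternatives were pseudocounts of 0.5 and 1, no filter, a filter on the overall mean, scaling by median of ratios or quantiles, no trend, replicate blocks, the range of sample numbers, each stage alone, 23 fits leaving out 1 sample, and 1 chosen after seeing the data, without the 4 samples whose seed globulins summed to over 20 FPKM. Sequences, gene positions and count data were not used here. No identifier of the table matched the reference gene table given, so the names are those of the study's tables or those under which the members were chosen.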

Additional observations from a re-analysis of the deposited data

Results flagged for a closer look

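For 5 genes of the lists, and for no member, the exposure effect differed between stages (limma F test of the 3 differences from EL31, beside 2.1% of all tested genes). MYBF1 (Vv07s0005g01210, adjusted p = 0.00673) had differences of -0.13, -0.38, 0.51 and 2.002 at EL31, EL33, EL34 and EL38. ELIP1 (Vv05s0020g04110, adjusted p = 0.0104) had its larger differences in green berries (2.39 and 2.34, then 0.92 and 0.43). PAP1 (Vv09s0002g03410, adjusted p = 0.0100) was at -0.36, -0.90, -0.39 and 0.59. BBX-a (Vv00s0203g00210, adjusted p = 0.0301) and BBX-b (Vv00s0347g00030, adjusted p = 0.0363) went from 0.61 and 0.68 at EL31 to -0.14 and -0.14 at EL38. The part of ripening in the EL33 differences of PAP1, BBX-a and BBX-b was not tested.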

How the results depend on the processing

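Of 1932 values of the members under alternatives, 1818 kept their direction and their side of the threshold, 52 lost a call, 34 gained one and 28 changed sign. The averages of HY5 and HYH, their directions at every stage other than HY5 at EL38, and every direction of COP1 between treatments kept throughout. Where a value changed, the cause was not tested.

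The HY5 difference at EL31 lost its call with no filter (0.85), median-of-ratios scaling (0.85), quantile normalization (0.79) and no trend (0.85). With no filter the exposed HY5 step from EL33 to EL34 lost its call (-0.65), and the control COP1 steps gained one (0.22 and -0.21). Scaling by median of ratios and by quantiles gave the first control COP1 step as 0.25 and 0.37, called, and the first exposed UVR8 step as -0.34 and -0.30, not called. Quantiles also gave calls to the first exposed steps of HY5 (0.72) and COP1 (0.31), left 2 downstream genes called at EL34, and turned the HYH control steps to 0.12 (first) and 0.043 (last). The changes of the UVR8 exposure effect between stages turned to -0.020 and 0.029 with median of ratios and the later one to 0.029 with quantiles. Pseudocounts of 0.5 and 1 and the filter on the overall mean each called 1 other light signalling gene at EL38.

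Same-numbered control and exposed samples correlated in their deviations from the group means at -0.025 to 0.15 (1 of 11 pairs over 0.1), so the numbers were not taken to pair the samples. The replicate number as a block called HYH at EL34 (0.60), both early control COP1 steps (0.22 and -0.21), the last control HY5 step (-0.54) and the first exposed one (0.60), 1 other light signalling gene at EL38, and turned the UVR8 change from EL34 to EL38 to 0.0066. A block for stage and replicate number together called COP1 at EL33 (-0.27). Panels were inferred from the final digits of the sample numbers, since the labels do not name them. A random block for the panel ended the call of the COP1 average (-0.17, limma adjusted p = 0.0667). It called those COP1 steps, the HY5 steps (-0.59 and 0.60) and 1 signalling gene at EL38. A fixed block for the panel called the same steps (0.22, -0.21, -0.51 and 0.60) and turned the last HYH control step to 0.051. That block gives no difference between treatments, since each inferred panel had 1 treatment. The blocks changed no other call of a member.

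With the range of sample numbers, HY5 at EL31 (0.68), HYH at EL31 (0.62) and HYH at EL38 (1.001) lost their calls, HY5 at EL38 turned to -0.062, and 2 downstream genes at EL34, 2 at EL38 and 0 signalling genes at EL34 were called. With each stage alone HY5 at EL31 (0.85) and EL34 (1.145) and HYH at EL31 (0.69), EL33 (0.87) and EL38 (0.89) were not called, and 0 genes of either list were called, apart from 2 downstream genes at EL31.

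Without the 4 samples with high seed globulins HY5 at EL31 (0.85) and EL34 (1.12) and HYH at EL31 (0.69) and EL33 (0.90) lost their calls. No EL31 sample was left out, and the EL31 differences were unchanged. The COP1 average (-0.16), the first exposed UVR8 step (-0.29) and the second exposed HY5 step (-0.84) lost theirs as well. UVR8 at EL33 turned to 0.014 and its change from EL33 to EL34 to -0.059. Fewer downstream and signalling genes were called at EL33 and EL34 than in the main fit, as were fewer of all tested genes. More signalling genes were called at EL38.

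Leaving out 1 sample gave 0.64 to 1.06 for HY5 at EL31, whose call was lost without EL31 exposed 2 or 3 or control 1 or 2, EL33 exposed 3 or any control, any EL34 exposed sample or control 2, or EL38 exposed 2 or either control. HYH had 0.56 to 0.77 at EL31, 0.79 to 0.97 at EL33, 0.45 to 0.77 at EL34 (called without control 3) and 0.74 to 1.04 at EL38. UVR8 had -0.19 to 0.019 at EL33, -0.18 to 0.034 at EL34 and -0.24 to 0.064 at EL38, and its changes between stages -0.10 to 0.12 and -0.16 to 0.15. Steps ranged over 0.16 to 0.29 and -0.27 to -0.15 (COP1 control), -0.75 to -0.49 (HY5 control, last), 0.38 to 0.77 and -0.82 to -0.42 (HY5 exposed), -0.10 to 0.22 and -0.22 to 0.10 (HYH control), and -0.50 to -0.29 and -0.57 to -0.35 (UVR8 exposed). Called genes ranged over 3 to 6 at EL33 and 2 to 6 at EL34 (downstream) and 1 to 2 at EL31, 0 to 2 at EL34 and 0 to 2 at EL38 (signalling). Where 1 sample was left in a group, its spread was taken from the other groups. Groups of 2 or 3 samples and unknown read totals limit the precision. Over all genes, 945, 706, 673 and 967 were called at the 4 stages, with 677 to 1274, 8 to 1232, 76 to 1088 and 50 to 1275 over the other settings, the lowest at the last 3 stages with each stage alone, and 523 to 1026, 248 to 997, at most 768 and 314 to 1221 with 1 sample left out, where the lowest count at EL34 was 1.91 times below the 673.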
